A study of Rattus norvegicus with 4 samples.

Results

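The genes described here are 10 genes of central nervous system myelin and of oligodendrocytes: Mog, Mobp, Mbp, Enpp6, Plekhb1, Evi2a, Ugt8, Cntn2, Cryab and Qdpr. They were taken from a set of 12111 genes with a named probe, and their differences between these same arrays were known when they were chosen, so their values are given as a description with no test. All probes of the deposited table with one of these symbols alone were sought. There were 14, of which 13 could be read and 1 probe of Mbp could not, because the names of its stretch of the array could not be tied to values. Total RNA came from cells of the rat vestibular ganglion that were stained for calretinin, a calcium-binding protein, captured by laser microdissection and pooled, and it was hybridised to 1-colour (Cy5) arrays. Of the 4 arrays, 2 were titled calretinin_positive, which the design text links to afferents with calyx endings, and 2 calretinin_negative, linked to dimorphic and bouton afferents. They are called positive and negative arrays below, because the sample descriptions call all 4 positive and the titles alone tell the groups apart. The sources used here do not give strain, age or the number of animals in a pool.

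Oligodendrocytes wrap axons of the brain and spinal cord in myelin, and Schwann cells do so in peripheral nerves, which include the distal vestibular nerve and its ganglion. Myelin oligodendrocyte glycoprotein (Mog) and myelin-associated oligodendrocyte basic protein (Mobp) are proteins of central myelin, whereas myelin basic protein (Mbp), the galactolipid enzyme Ugt8 and the adhesion molecule Cntn2 are also used by Schwann cells, and Cntn2 by neurons. Cryab, Qdpr and Plekhb1 are expressed in many further cell types.

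Each array held 35126 probes, and the values are intensities with array medians between 0.9896 and 0.99155. The arrays of a group correlated across tested probes at r = 0.98955 (positive) and 0.99437 (negative), a correlation across genes, which are not independent replicates. Gene names and values were out of step in part of the table: names of its early part were read at their own row, and names of its late part 5 table rows later. This reading was inferred from the levels of abundant genes, and 11 of the 12 member probes that passed the filter lie in the early part. Transcript of calretinin itself, Calb2, read 290.8 and 327.6 in the positive arrays against 138.5 and 129.1 in the negative arrays. It was thus higher in the positive arrays, as their titles say, and abundant in both groups. Calb2 lies in the late part, and the value at its own row would give a log2 difference of -1.08 (positive minus negative), so this check of the titles rests on the shifted reading. Nothing in the labels says that the arrays of a group came from separate animals or pools, so every p-value below measures only the spread between these arrays, which may be technical, and their number limits the precision.

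The start regions of the members are shown first, since transcription factors of myelin genes bind in such regions. RefSeq start regions on the rat build GRCr8 were matched by symbol for 7 of the 10 members, and Mog, Evi2a and Cryab had no entry. Those of the 3 matched members other than Mbp that differed more than 4-fold between the groups are printed, each as the 250 bases before the start site, 5′ to 3′ on the gene's strand. Capitals mark CTTTGT, the letters ACAAAG read on the other strand, which form a core bound by SOX proteins such as SOX10.
Mobp (chr8:128746982-128747231, plus strand): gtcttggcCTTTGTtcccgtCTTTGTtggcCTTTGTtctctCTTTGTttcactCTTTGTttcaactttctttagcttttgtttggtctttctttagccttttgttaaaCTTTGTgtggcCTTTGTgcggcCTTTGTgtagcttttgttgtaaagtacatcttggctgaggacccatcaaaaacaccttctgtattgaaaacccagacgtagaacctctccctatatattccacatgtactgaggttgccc
Enpp6 (chr16:52026729-52026978, minus strand): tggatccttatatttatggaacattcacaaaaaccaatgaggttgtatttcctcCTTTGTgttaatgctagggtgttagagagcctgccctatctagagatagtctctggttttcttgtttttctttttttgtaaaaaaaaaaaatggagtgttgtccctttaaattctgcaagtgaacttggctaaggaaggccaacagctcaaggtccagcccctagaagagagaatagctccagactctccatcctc
Plekhb1 (chr1:164425173-164425422, minus strand): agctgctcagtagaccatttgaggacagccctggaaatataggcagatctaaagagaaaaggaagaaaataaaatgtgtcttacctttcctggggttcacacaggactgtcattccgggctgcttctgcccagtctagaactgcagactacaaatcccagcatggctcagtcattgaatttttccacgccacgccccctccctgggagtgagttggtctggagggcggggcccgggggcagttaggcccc
In the Mobp window ACAAAG occurred 8 times, always on the other strand, at positions -242 to -120 counted from the start site, in a run of similar short units. The Enpp6 window held it 1 time and the Plekhb1 window had no match. Counting both start sites that RefSeq lists for Mbp, 3 of 8 member windows held ACAAAG on either strand, against 16.3% of all 33469 windows. Of the other motifs searched on both strands, ACAATG was in 1 of 8 member windows (11.1% of all windows), the E-box CAGCTG in 1 (12%), and the E-box CAGGTG (15.9%), the MYRF core CTGGCAC (3.78%) and the TATA box TATAAA (12.9%) in 0. In the printed windows no match overlapped another. A match describes letters only, and a window without one says nothing about the factor.

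Among the members with both groups above the dim limit, an intensity of 0.456 (the 40th percentile of probe means), Mog and Mobp showed the widest gaps between the groups. Mog, a surface protein of the outermost myelin layer, read 0.985 and 1.01 in the positive arrays and 42.0 and 43.8 in the negative arrays. Its mean was 1.0001 ± 0.0209 (SD, n = 2) against 42.9 ± 1.25, a 42.9-fold difference, with the positive arrays near the array median. Mobp, a small basic protein of compact central myelin, was measured by 3 probes. The brightest read 1.79 and 2.01 in the positive arrays and 75.7 and 77.5 in the negative arrays, 40.3-fold apart. Another, of the late part of the array, read 0.313 and 0.133 against 1.32 and 1.24; its positive mean, 0.223, lay under the dim limit, so no fold is given. The remaining probe, which carries the same database sequence name as that one, read 0.0516 and 0.253 against 0.161 and 0.143, dim in both groups and with groups that overlapped. The Mobp probes therefore disagreed: those with a level above the limit in the negative arrays were lower in the positive arrays, and the dimmest showed no difference.

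Mbp, the basic protein that holds the inner faces of the myelin membrane together, read 1.56 and 1.54 in the positive arrays and 13.36 and 13.39 in the negative arrays. The means were 1.55 ± 0.0163 (SD, n = 2) and 13.4 ± 0.0241, 8.63-fold apart, and the groups were far apart compared with the spread within them. In pooled RNA such as this, fewer cells of a type and less RNA per cell cannot be told apart.

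**Figure D1:**
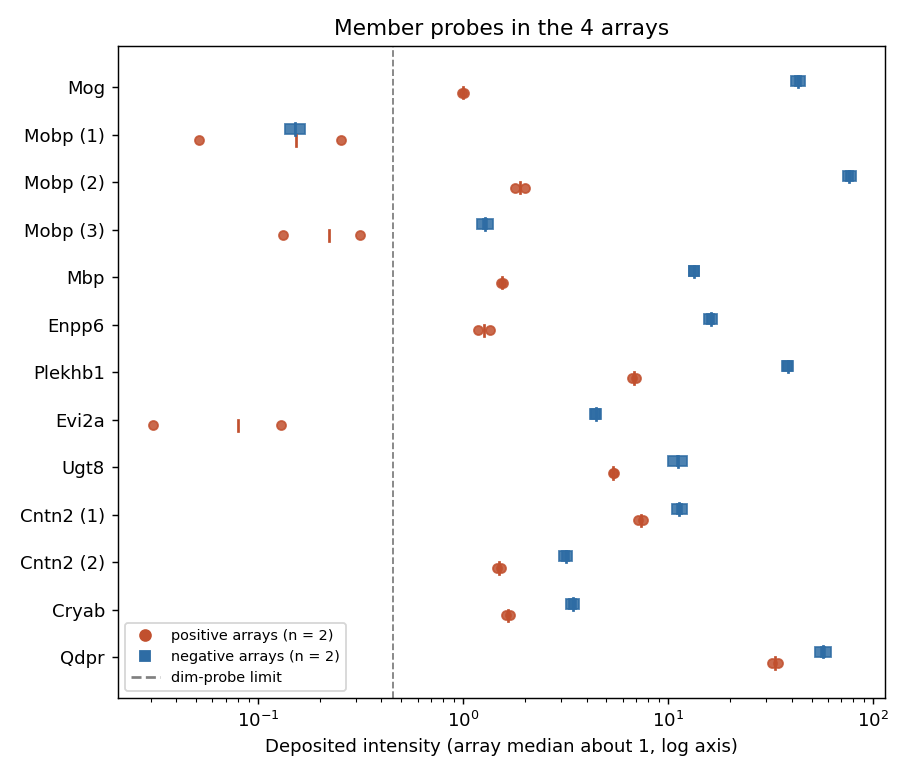
Deposited intensity of the 13 readable member probes (rows) in the 4 arrays on a log axis; circles are positive arrays, squares negative arrays, vertical ticks group means, and the dashed line the dim-probe limit of 0.456. In 12 of the 13 probes both negative arrays lie above both positive arrays, and the exception, Mobp (1), is dim in all 4 arrays.

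Among the members with enzymatic or membrane-associated roles, Enpp6, a choline phosphodiesterase of newly formed oligodendrocytes, read 1.19 and 1.35 in the positive arrays and 15.8 and 16.4 in the negative arrays, 12.7-fold apart. Plekhb1, a membrane-associated protein with a pleckstrin homology domain, read 6.99 and 6.63 against 38.5 and 37.95, 5.61-fold apart. Both were thus clearly separated, but Plekhb1 kept a level well above the dim limit in the positive arrays. Evi2a, a transmembrane protein gene that lies inside an intron of the neurofibromin gene, read 0.0306 and 0.13 against 4.46 and 4.39. Its positive arrays were under the dim limit, so only the levels are given. Ugt8 makes galactosylceramide, a main lipid of myelin. It read 5.43 and 5.38 against 10.5 and 11.7, a 2.05-fold difference that was smaller than that of Enpp6 or Plekhb1.

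Cntn2, the axonal and glial adhesion molecule of the juxtaparanode beside the node of Ranvier, had 2 probes. The brighter read 7.56 and 7.13 in the positive arrays and 11.0 and 11.7 in the negative arrays, 1.54-fold apart, and the dimmer 1.47 and 1.53 against 3.21 and 3.12, 2.11-fold apart. Both probes had the same direction and no overlap. Cryab, a small heat shock protein abundant in oligodendrocytes, read 1.69 and 1.62 against 3.37 and 3.48, 2.07-fold apart. Qdpr, which regenerates tetrahydrobiopterin, the cofactor of aromatic amino acid hydroxylases, read 32.1 and 34.5 against 58.6 and 55.2, 1.71-fold apart. Its positive arrays were far above the dim limit.

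Taking the brightest probe of each gene, 6 of the 10 members differed more than 4-fold, 2 between 2- and 4-fold and 2 less than 2-fold. Their median log2 difference was -2.80 (positive minus negative). Evi2a, with its positive arrays under the dim limit, counts among the 6 and enters the median, although the size of its difference cannot be read. The members with both groups above the dim limit ranged from -5.42 for Mog to -0.63 for Cntn2. The median of all 21070 tested probes was 0.11. The filter on dim probes was passed by 12 of the 13 readable member probes, Evi2a and one of the Mobp probes by their negative arrays alone. In these 12, and in at least 1 probe of each of the 10 genes, both negative arrays exceeded both positive arrays. Such values were found in 27.9% of all probes read by name and in 31.9% of all tested probes, and 23.6% of tested probes were called lower in the positive arrays (limma, adjusted p under 0.05), 2.31% at least 4-fold, which is the background and no test of members chosen from this contrast. The choice of members from this contrast favours low ranks. There were 17 tested probes further down than Mog, 24 further than the brightest Mobp probe, 108 further than Enpp6, 180 further than Mbp and 308 further than Plekhb1. In contrast, 1431 lay further down than Ugt8 and 2631 further than the brighter Cntn2 probe. For the 10 member probes with both groups above the dim limit, the SD between arrays was 0.692% to 9.25% of the mean in the positive and 0.180% to 7.56% in the negative arrays.

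**Figure D2:**
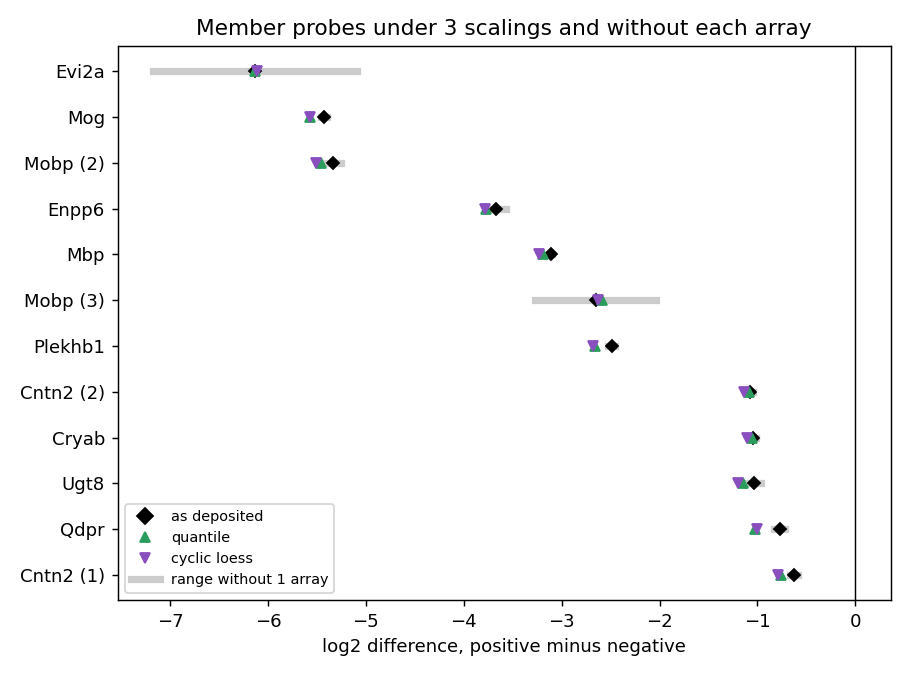
Log2 difference, positive minus negative, of the 12 member probes above the filter on dim probes, with values as deposited (diamonds), after quantile (upward triangles) and cyclic loess normalization (downward triangles), and the range when 1 array is left out (grey bars). All points lie below 0, and the grey bars are wide only for Evi2a and Mobp (3), whose positive arrays are under the dim limit.

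Other genes of central myelin and of oligodendrocytes, listed by role, moved mostly in the same direction, with exceptions. This list, like those below, was drawn up with earlier results of these data known, so its counts are no independent support for the members. Of 59 listed genes 41 had a readable name and 31 were bright enough to test. Among these 18 were lower in the positive arrays, 4 were higher and 9 did not pass (limma, Benjamini-Hochberg adjusted p under 0.05). That is 58.1% lower, against 23.6% of all tested probes lower and 40.6% higher, and the list's median log2 difference was -0.52 against 0.11. Listed genes stand by their brightest probe, whereas the background counts all tested probes, so the shares are not strictly alike. Differences of at least 2-fold were found in 12 genes, all lower, against 7.07% of all probes lower by that much. With quantile or cyclic loess normalization 20 were lower and 4 higher. Names of the early part of the array alone, which need no shift in reading, gave 9 lower and 2 higher of 15.

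The list's largest differences were in Tf, the iron carrier transferrin made by oligodendrocytes, with 8.71 and 9.03 in the positive against 179.1 and 191.2 in the negative arrays, and in Myrf, the transcription factor that drives myelin genes in oligodendrocytes. Myrf read 2.67 and 2.93 against 41.9 and 39.8, 14.6-fold apart (log2 difference -3.87 ± 0.07 SE; adjusted p = 1.13e-09, limma). Fa2h, which hydroxylates the fatty acids of myelin galactolipids upstream of Ugt8, read 4.16 and 4.20 against 22.9 and 23.8, 5.59-fold apart (adjusted p = 5.53e-09, limma). Ppp1r14a, an inhibitor of protein phosphatase, differed 5.50-fold. Sox10, a transcription factor of oligodendrocytes and Schwann cells, read 1.13 and 1.46 against 6.09 and 6.12, 4.76-fold apart (adjusted p = 2.66e-07, limma). All 5 genes were thus lower in the positive arrays with no overlap, in the same direction as the members. Tf lies in the early part of the array, whereas Myrf, Fa2h, Ppp1r14a and Sox10, like Opalin and Cldn11, lie in the late part, where a value is read 5 table rows after its name.

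Not every defining gene followed with values as deposited. Opalin, an oligodendrocyte membrane protein, read 10.8 and 11.6 in the positive and 10.4 and 10.03 in the negative arrays (adjusted p = 0.132, limma), and Cldn11, the tight junction protein of central myelin, 187.0 and 182.1 against 200.5 and 188.3 (adjusted p = 0.40, limma). Cldn11 did pass as lower in the positive arrays after quantile (log2 difference -0.34, adjusted p = 0.00183, limma) and cyclic loess normalization (-0.37, adjusted p = 0.00183, limma). Omg, a myelin and neuronal glycoprotein gene that lies in the same intron as Evi2a, was higher in the positive arrays, 14.9 and 12.8 against 9.19 and 8.94 (adjusted p = 0.00014, limma). Aspa, which breaks down N-acetylaspartate in oligodendrocytes, was also higher, 4.26 and 4.55 against 2.55 and 2.21. These 4 genes fall outside the rule for naming genes and were picked after their values were seen. The readable probes of Mag (-0.0119 and 0.436 against 0.0334 and 0.241), Olig1 (0.0787 and 0.107 against 0.598 and 0.572) and Olig2 (0.109 and 0.208 against 0.168 and 0.238) were too dim to test. Cnp had no probe that could be read. Mog and Mobp were thus lower in the positive arrays, while Opalin did not pass, Cldn11 passed only after normalization and Mag was dim.

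**Figure D3:**
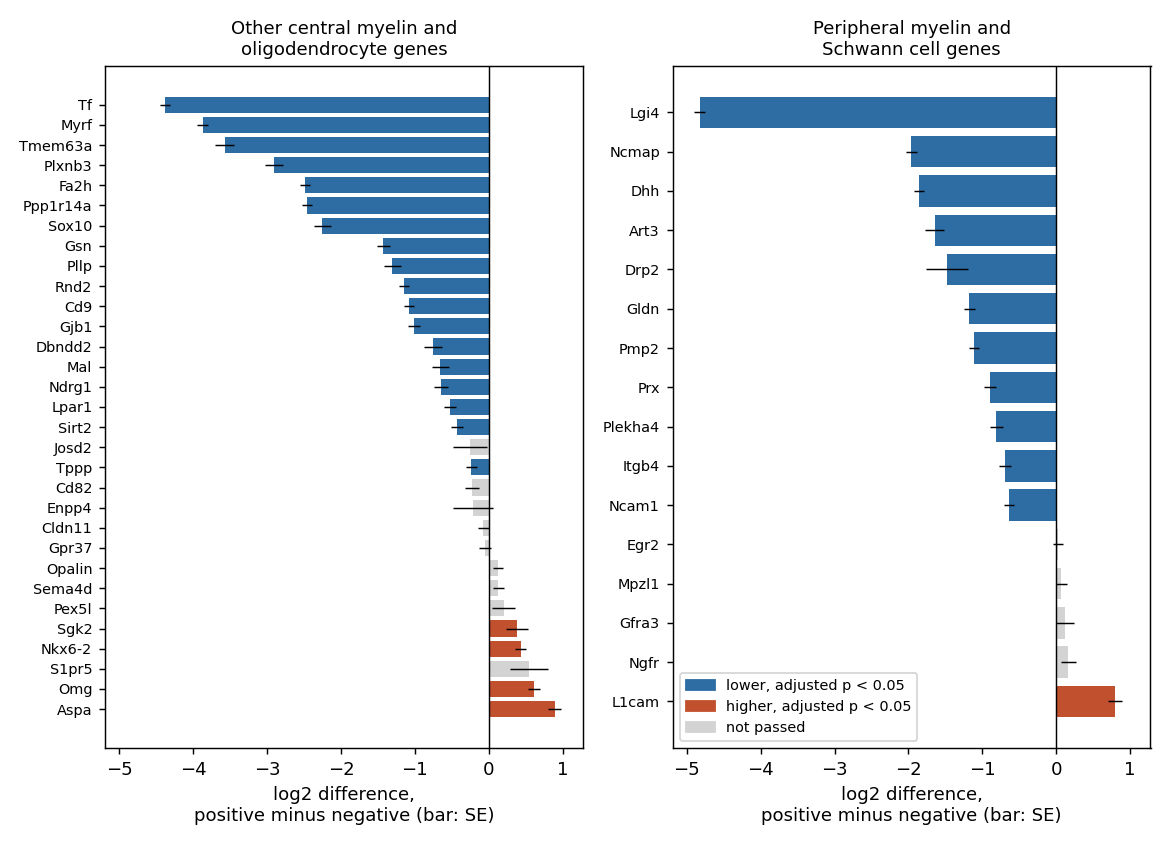
Log2 difference, positive minus negative, with SE from limma (2 arrays a group), of the tested genes of 2 lists: 31 other central myelin and oligodendrocyte genes (left) and 16 peripheral myelin and Schwann cell genes (right). Blue bars were lower and orange bars higher at an adjusted p under 0.05, grey bars did not pass; 18 and 11 genes were lower, 4 and 1 higher.

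Peripheral myelin genes were lower in the positive arrays as well. Of 25 listed genes of peripheral myelin and Schwann cells 16 were tested, and 11 were lower, 1 higher and 4 did not pass (limma). That is a lower share of 68.8%, against 23.6% of all tested probes, and a median log2 difference of -0.85. With quantile or loess normalization 12 were lower and 1 higher. Among the 11 lower genes Drp2, named for this limit alone, read 0.242 and 0.378 against 0.913 and 0.772, with its positive arrays under the dim limit. Lgi4, a secreted glial protein needed for peripheral myelination, read 0.923 and 0.878 against 26.2 and 24.8, 28.3-fold apart. Ncmap, a protein of non-compact peripheral myelin, differed 3.89-fold, Dhh, a Schwann cell signal, 3.63-fold, and Gldn, the Schwann cell ligand at the node of Ranvier, 2.26-fold. Prx, which encodes periaxin of Schwann cells, read 113.0 and 101.3 against 191.1 and 206.8, 1.86-fold apart (adjusted p = 1.04e-05, limma). Pmp22 had no probe that could be read. No test of a difference between the central and the peripheral list was made. Of 4 tested genes of oligodendrocyte precursors 2 were lower, Bcan (9.31 and 9.14 against 35.2 and 35.5) and Cspg4 (5.03 and 4.996 against 14.9 and 16.3), both proteoglycan genes. Ptprz1 (2.10 and 2.14 against 2.14 and 2.39) and Cspg5 (2.56 and 2.79 against 2.75 and 2.78) did not pass.

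In the lists of partners of single members, 12.5% to 30.8% of tested genes were lower in the positive arrays with values as deposited. The shares over all tested probes were 23.6% lower and 40.6% higher. With 7 to 14 tested genes a list, these counts are not read as a result about the partners. Beside Cntn2, 14 further genes of the node, paranode and juxtaparanode were tested, and 4 were lower and 5 higher; after quantile normalization 4 were lower and 3 higher, after cyclic loess 6 and 2. Sptbn4, the spectrin of the node, read 18.1 and 19.5 against 39.0 and 39.7 at its brightest probe, and 1.79 and 1.68 against 1.54 and 1.55 at the other. Epb41l2, a membrane skeleton protein of Schwann cells, differed 1.61-fold. The sodium channel gene Scn2a was higher in the positive arrays, 1.54 and 1.55 against 0.805 and 0.947. Nfasc, the neurofascin gene with neuronal and glial isoforms, had probes that disagreed: the brightest read 12.2 and 12.1 against 9.10 and 8.85, and another 3.51 and 3.81 against 12.1 and 10.6.

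Beside Ugt8, 13 genes of galactolipid and sphingolipid metabolism gave 3 lower (23.1%, against 23.6% of all tested probes) and 4 higher (5 and 2 after either normalization). Apart from Fa2h, Elovl7, which lengthens fatty acids, was 1.91-fold lower in the positive arrays. Ugcg, which makes glucosylceramide from the ceramide that Ugt8 also uses, was 1.62-fold higher (135.6 ± 2.65, SD, n = 2, against 83.9 ± 2.96), and Asah1, which cleaves ceramide, 1.35-fold higher. Beside Cryab, 8 genes of small heat shock proteins and their regulators gave 1 lower and 4 higher (2 and 3 after quantile, 3 and 4 after loess normalization). Hspb1 was 1.54-fold lower in the positive arrays, whereas Hspb8 read 32.6 and 29.97 against 16.7 and 17.1, and its partner Bag3 (1.44-fold) and the heat shock factor Hsf2 (1.46-fold) were higher. Cryab and Hspb1 thus differed in direction from Hspb8.

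Beside Qdpr, 7 genes of tetrahydrobiopterin metabolism gave 1 lower (14.3%, against 23.6% of all tested probes) and 4 higher, or 3 higher after either normalization. Gchfr, the feedback regulator of the pathway's first enzyme, was 2.93-fold lower in the positive arrays, and Th (1.66-fold), Spr (1.52-fold) and Tph2 (1.39-fold), of which Spr makes the cofactor and the others use it, were higher. Tph2 did not pass without the second negative array (adjusted p = 0.0526, limma). Beside Enpp6, 13 genes of its family and of choline lipid metabolism gave 4 lower and 4 higher (4 and 3 after either normalization). Slc44a1, a choline transporter, read 12.1 and 10.9 against 30.2 and 33.7, and Enpp3, a nucleotide phosphodiesterase, was 1.79-fold lower. Gdpd1, a phosphodiesterase of lysophospholipids, was 2.29-fold higher in the positive arrays and the choline kinase gene Chkb 1.47-fold.

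Markers of other cell types differed between the groups in both directions. Among all tested probes 23.6% were lower in the positive arrays and 40.6% higher, which is the background for these counts. The astrocyte genes Gfap (1.10 and 0.991 against 42.8 and 46.2) and Aqp4 (0.344 and 0.603 against 48.4 and 51.7) were lower in the positive arrays. Of 7 tested astrocyte markers 4 were lower (57.1%) and 1 higher, under each of the scalings used. The summed level of the 9 read was 307.1 to 332.2 in the positive and 377.5 to 378.4 in the negative arrays. Most of it came from Gjb6, which was higher in the positive arrays (179.1 and 191.0 against 126.5 and 124.5), and Slc1a3 (121.4 and 133.9 against 149.9 and 143.8). Of 8 endothelial and mural markers 7 were lower (87.5%) and none higher, with Vwf 4.78-fold and Pecam1 3.79-fold. The summed level of 10 was 31.7 to 32.5 against 85.9 to 89.7. Of 8 microglia and macrophage markers 4 were lower and 2 higher (1 higher after either normalization), with C1qa 4.12-fold and C1qc 3.70-fold lower. The higher ones were Cd68 (1.35-fold) and Ptprc (1.28-fold). The summed level over 9 was 87.8 to 91.7 against 159.3 to 168.3, most of it from Csf1r (47.997 and 52.5 against 109.3 and 120.9). Of 4 satellite glia markers 2 were lower (3 after loess normalization) and 1 higher, with Sox10 and S100b (3.33 and 3.85 against 8.84 and 8.55) lower. Sox10 is also counted in the central myelin list and S100b among the astrocyte markers, so these 2 are no separate evidence about satellite glia. Apoe, the lipid carrier apolipoprotein E, was the higher one, 143.5 and 139.8 against 83.0 and 82.4 (adjusted p = 7.53e-06, limma), and made up most of the list's summed level over 5, which was 149.3 to 152.3 against 102.4 to 103.1. Some genes of astrocytes, vessels and microglia were thus lower in the positive arrays, while others of astrocytes and microglia were higher with values as deposited. The part of these other cell types in the members' differences was not tested.

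Genes listed as central neuron markers were split. Cbln1, a synapse organiser of cerebellar granule cells, read 2.91 and 2.86 against 11.0 and 12.8, and Gabra6, a GABA receptor subunit of the same cells, 0.129 and 0.189 against 2.50 and 2.48, with its positive arrays under the dim limit. A second Gabra6 probe was dim in all arrays. The vesicular glutamate transporter genes went the other way with values as deposited, Slc17a7 with 2.17 and 1.96 against 0.640 and 0.793 (2.89-fold, adjusted p = 1.09e-05, limma) and Slc17a6 with 283.6 and 295.7 against 247.6 and 250.5 (1.16-fold, adjusted p = 0.0254, limma). Slc17a6 did not pass and turned after quantile (log2 difference -0.016, adjusted p = 0.842, limma) and loess normalization (-0.086, adjusted p = 0.292, limma). Apoe, Gjb6, Slc1a3, Csf1r, Cd68, Ptprc, Slc17a7, Slc17a6 and, below, Ptgds and Dcn fall outside the rule for naming genes. They were picked after their values were seen. Of 6 tested genes in the central neuron list 2 were lower (33.3%, against 23.6% of all tested probes) and 2 higher (3 and 1 after either normalization). The summed level of 8 was 315.7 to 326.4 against 291.6 to 293.0, most of it from Slc17a6. Whether the transporter values came from central neurons or from neurons of the ganglion was not tested. General neuron markers were higher in 5 of 7 and lower in 1 (2 higher and 1 lower after either normalization), with Nefh at 3.69 and 4.05 against 1.37 and 1.15 and Nefm at 102.6 and 101.1 against 68.9 and 67.7, and a summed level over 8 of 356.8 to 369.5 against 290.1 in both negative arrays. Of 7 fibroblast and meningeal markers 2 were lower and 4 higher (3 higher after quantile, 2 after loess normalization). Ogn (124 and 111 against 53.4 and 56.9) and Fn1 (49.3 and 49.1 against 24.0 and 26.3) were higher, and Dcn (7.75 and 9.22 against 16.6 and 16.5) was lower. The summed level over 8 was 840.2 to 853.1 against 599.2 to 686.9, most of it from Ptgds (605.0 and 623.4 against 447.9 and 524.8). In the neuron and fibroblast lists most genes that passed with values as deposited were thus higher in the positive arrays, opposite to the members. So were 63.3% of all calls with these values, so the counts are not read as a trait of these cell types. The part of cell makeup in either direction was not tested.

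**Figure D4:**
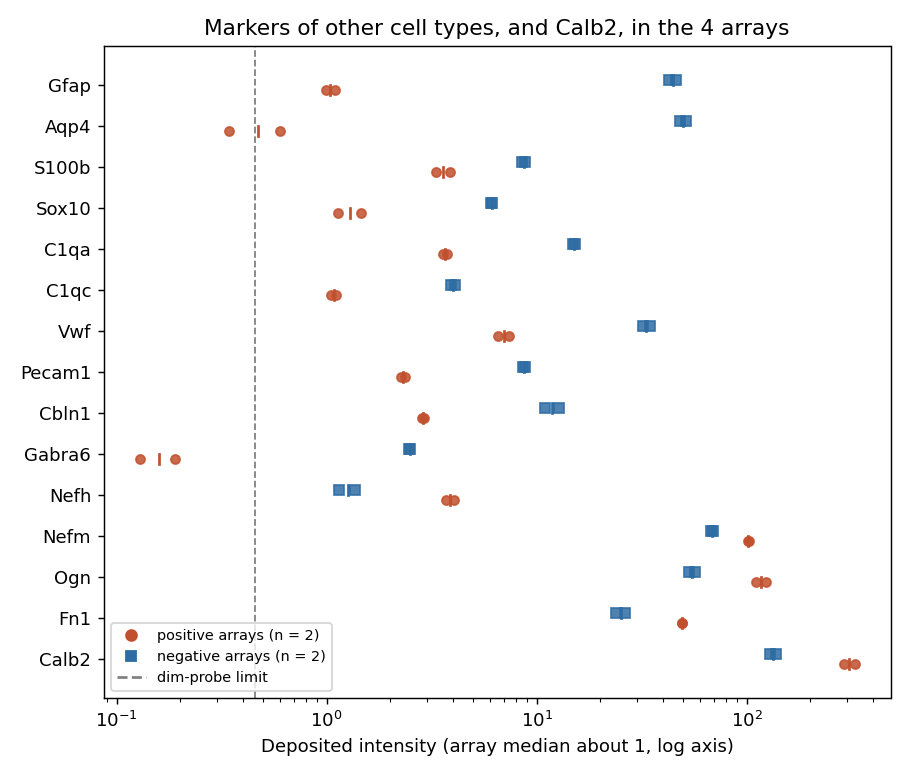
Deposited intensity of 14 named markers of other cell types and of Calb2 in the 4 arrays on a log axis; symbols as in the plot of member probes. From Gfap to Gabra6 the negative arrays lie higher, and from Nefh to Calb2 the positive arrays do.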

How the data were processed

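Probe intensities on a linear scale were used as deposited by the authors; the sources used here do not name the scanner or say how background was corrected and arrays were normalized. Array medians near 1 point to a scaling to the median, which no source states, and whether genes were centred is unknown. A fixed code marks missing values in the deposited columns (9 to 38 per array). Before taking log2, these and values at or below 0 (532 to 776 per array) were replaced by the array's own 1st percentile of values above 0. Probes with a mean log2 under the 40th percentile (intensity 0.456) were left out, which left 21070.

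Probes were named from the platform annotation, with symbols updated by gene ID: 1 symbol was given for 16677 probes (16649 of them found in a rat gene table), several for 163 and none for 18286. Names of the early part of the table (7449 probes) were read at their own row and those of the late part (7218) 5 table rows later; those between were not read. This was checked on 37 early and 45 late probes of ribosomal, respiratory chain and proteasome genes, whose mean log2 level peaked at 0 rows (4.22) and 5 rows (4.00), against -0.26 to 1.88 at the other shifts from -2 to 8. Members and lists were chosen with earlier results of these data known. A gene in a list is represented by its brightest tested probe, and folds are differences of mean log2 values.

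limma 3.58.1 in R 4.3.3 (lmFit, eBayes with trend, two-sided) was fitted to all tested probes with Benjamini-Hochberg adjustment at 0.05, and tested on simulated data. Named were all member probes, the 4 genes of each pathway list and 2 of each marker list with the smallest p, and preset defining genes. Alternatives were 2 normalizations, other filters and floors, other variance priors, replicate number as a block, leaving out each array, other readings of names and means over probes. Start regions are from RefSeq (GRCr8). Figures were drawn with matplotlib 3.10.9. Protein sequences were not used here.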

Additional observations from a re-analysis of the deposited data

How the results depend on the processing

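Under the alternatives all 10 to 13 tested member probes had both negative arrays above both positive arrays, except that without a filter on dim probes 12 of 13 did. Most of these settings could not have changed this for the 12 probes of the main fit. Leaving out an array cannot make separate groups overlap, and a filter does not change values. Only the normalizations, the raised floor and the reading of all names at their own ID could have done so. Of 142 alternative values of single member probes 126 moved by less than the spread between arrays and 16 by more. The filters left every value as it was, so part of the 126 could not move. Quantile normalization moved Mog, Mbp, Plekhb1, Ugt8, Qdpr and the brighter Cntn2 probe by more than the spread. Cyclic loess normalization so moved these, Cryab, the dimmer Cntn2 probe and the brightest Mobp probe. All these moves widened the difference. Beyond the spread 0 turned, but the dimmest Mobp probe went from -0.405 to 0.743 without positive replicate 1. In other central myelin genes, leaving out each array gave 18 to 20 lower and 3 to 4 higher, no filter on dim probes 21 and 3, and means over a gene's probes 19 and 4. The replicate block gave 19 lower and 3 higher; deviations of arrays with one replicate number were uncorrelated (r = 0.000316 across probes), which gives no ground to treat them as pairs. Names of the early part alone gave 9 lower and 2 higher in this list and 14 lower and 13 higher in the other pathway lists together (26 and 22 otherwise), where fewer genes are tested. All names at their own ID, a reading the abundant genes go against, gave 16 lower and 13 higher of 37 tested in the central myelin list. A stricter filter at the 60th percentile leaves fewer probes to test, and 3153 were called lower in place of 4966. Of all calls 63.3% were higher in the positive arrays, 53.5% with quantile and 49.6% with cyclic loess normalization, which moved the median log2 difference of all tested probes from 0.11 to 0.01 and -0.01. Over 47 other named genes, 605 of 628 alternative values kept their direction and their side of the threshold, 6 lost their call and 17 turned. Without positive replicate 1 the log2 difference of Cspg5, which had not passed, was 0.0137, and without positive replicate 2 it was -0.108. With names of the early part alone those of Sptbn4 (0.17) and Nfasc (-0.22) came from other probes and turned. With all names at their own ID they turned for Myrf (1.27), Ptprz1 (0.13), Cspg5 (0.94), Dhh (0.22), Sptbn4 (0.17), Nfasc (-1.06), Ugcg (-0.0919), Th (-0.0377), Slc44a1 (1.51), Enpp3 (0.88), Sox10 (0.35), C1qc (0.0857), Vwf (0.0844) and Calb2 (-1.08), since other values are then read under these names. Elsewhere the cause of a change was not tested.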
